A study of Homo sapiens with 4 samples.

Results

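Protein kinase C (PKC) is a family of serine/threonine kinases, and the transcripts of 8 of its genes (PRKCQ, PRKCA, PRKCB, PRKCD, PRKCE, PRKCH, PRKCI and PRKCZ) were followed in a colorectal cancer line with and without an HMGA2 expression plasmid. The genes were found by their platform symbol, which gave 13 single-gene probes of the 31741 on the array and 8 of the 18336 genes named there. PRKCQ was picked because it read among the largest rises in this same comparison, and its relatives were picked by family with the results known. The values of all 8 are therefore a description, and no p-value is given for them. Where calls at a threshold are counted among the 8, the calls are part of that description and not a test of the family.

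The cells were of DLD-1, an established line from a human colorectal adenocarcinoma. One group carried pCMV6-HMGA2, in which a CMV promoter drives HMGA2 with a tGFP tag, and the control group carried pCMV6-AC-GFP. Both groups had been selected as stable clones with 1 mg/mL of the antibiotic G418, were kept in 0.5 mg/mL and received no other treatment, so the plasmid backbone and the G418 are common to both. No source used here gives the number of clones behind each line or says that a group's 2 arrays stem from different cultures, so the spread and the p-values cover these arrays only and may be technical. Each group was hybridised to 2 single-colour arrays, 4 in all.

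PKC isoforms differ in what switches them on. The conventional isoforms, PKC alpha (PRKCA) and beta (PRKCB), need calcium and the membrane lipid diacylglycerol (DAG). PKC delta, epsilon, eta and theta (PRKCD, PRKCE, PRKCH and PRKCQ) need DAG but not calcium, and the atypical isoforms iota (PRKCI) and zeta (PRKCZ) need neither and act in cell polarity complexes. PKC theta is best known from T cells, where it links the antigen receptor to NF-kB through the BCL10 and MALT1 proteins, while most of the other isoforms are widely expressed in epithelia, including that of the colon.

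The promoter of PRKCQ is shown first because it is the isoform with the largest difference, together with those of PRKCH and PRKCI, which read lower on the arrays labelled HMGA2. All are RefSeq windows on GRCh38.p14 reaching from 250 bases before the annotated start to 50 after it, and the capitals mark each CG dinucleotide. The PRKCQ window is chr10:6580597-6580896 on the minus strand, the PRKCH window chr14:61321329-61321628 on the plus strand and the PRKCI window chr3:170222174-170222473 on the plus strand.
PRKCQ: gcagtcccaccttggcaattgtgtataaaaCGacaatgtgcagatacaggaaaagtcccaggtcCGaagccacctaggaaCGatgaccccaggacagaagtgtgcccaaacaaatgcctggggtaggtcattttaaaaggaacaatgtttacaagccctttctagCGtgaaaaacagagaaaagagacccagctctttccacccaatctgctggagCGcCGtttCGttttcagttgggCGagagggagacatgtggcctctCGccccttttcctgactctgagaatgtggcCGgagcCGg
PRKCH: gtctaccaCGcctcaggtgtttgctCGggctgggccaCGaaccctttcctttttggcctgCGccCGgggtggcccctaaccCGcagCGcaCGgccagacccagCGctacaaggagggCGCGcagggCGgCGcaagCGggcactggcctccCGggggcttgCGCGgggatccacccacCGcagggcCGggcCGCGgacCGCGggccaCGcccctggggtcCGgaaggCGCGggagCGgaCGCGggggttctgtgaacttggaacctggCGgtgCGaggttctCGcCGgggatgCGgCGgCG
PRKCI: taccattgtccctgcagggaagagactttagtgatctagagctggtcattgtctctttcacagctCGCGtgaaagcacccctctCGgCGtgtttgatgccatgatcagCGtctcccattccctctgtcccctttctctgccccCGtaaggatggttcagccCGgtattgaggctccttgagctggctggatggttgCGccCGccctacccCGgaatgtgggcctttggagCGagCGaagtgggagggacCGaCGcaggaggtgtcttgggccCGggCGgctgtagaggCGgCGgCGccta

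The PRKCQ window holds 11 CG dinucleotides and 51.3% G and C, against 37 and 74.3% for PRKCH and 19 and 60.7% for PRKCI. Over the 12 windows of the other 7 isoforms, some of which have several annotated starts, the G and C content ran from 57.7% to 81.3%, so PRKCQ lay below all of them. Their CG count ran from 8 to 52, and the lowest belongs to the most downstream of the 3 PRKCD windows. The median of all 35114 windows was 14 CG and 58.7% G and C, and 46.9% of windows hold no more CG than that of PRKCQ. The letters GGGCGG, searched on both strands, are in 10 of the 12 other windows and not in that of PRKCQ, against 45.0% of all windows. TATAAA, searched on both strands, is in the PRKCQ window at base 24 from its 5′ end, in 0 of the 12 others and in 11.5% of all windows. AATT, which reads the same on both strands and is a short stretch of the AT-rich kind that the AT-hooks of HMGA proteins contact, is in the windows of PRKCQ and PRKCE and in 45.8% of all windows. These matches describe the letters of the windows only.

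The arrays themselves correlated closely within a group but differed at the low end. The lowest intensity was -29 and -5 on the vector arrays and 62 and -7 on the HMGA2 arrays. In the same order 639, 1, 0 and 9 probes lay at or below 0. The vector arrays had a median intensity of 698 and 767 and the HMGA2 arrays 649 and 607, and over 13752 genes the Pearson r of log2 values was 0.988 and 0.992 within the groups and 0.957 to 0.958 between them. The epithelial markers were bright, with 7 of 7 above the limit for dim genes on all 4 arrays and a summed intensity of 451855 to 475321 on the arrays labelled vector and 523677 to 531133 on those labelled HMGA2. EPCAM, KRT19 and CDH1 accounted for most of these sums. The limit for dim genes is an intensity of 234, the 25th percentile of mean level over genes. Of 9 T cell markers 4 were below it on all 4 arrays and 3 above it on all 4, and their summed intensity was 11786 to 13719 and 13941 to 15458. CD3D accounted for most of that sum, while LCK, ZAP70, CD3E and CD247, which carry or relay the T cell receptor signal, were below the limit on all 4 arrays. LAT, an adaptor of the same signal, lay above it at 931, 1023, 1104 and 920, and the receptor chain gene CD3G read 259, 524, 378 and 164, in the order vector replicates 1 and 2, HMGA2 replicates 1 and 2. HMGA2 itself did not separate the groups one way: its brighter probe read 5576 and 5270 in the group labelled vector against 3917 and 4369 in that labelled HMGA2, and its other probe 2728 and 3493 against 4596 and 3466. Directions below therefore rest on the array labels.

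PRKCQ read higher on both arrays labelled HMGA2 with both of its probes. The brighter probe gave 154 and 160 in the group labelled vector against 1111 and 1176 in that labelled HMGA2, and the groups lie far apart compared with the replicates. The log2 difference was 2.86 (SE 0.18, n = 2 arrays a group), a ratio of 7.28. The dimmer probe gave 85 and 122 against 436 and 380, a log2 difference of 2.00 (SE 0.38 in the fit of every probe). In that fit the SE of the brighter probe was 0.24. Both probes were below the limit for dim genes on both arrays labelled vector and above it on both labelled HMGA2. The size of the difference thus depends on how a near-background reading is treated; counted from that limit instead of the vector reading, the brighter probe was 4.88 times higher, or 2.29 on the log2 scale.

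**Figure D1:**
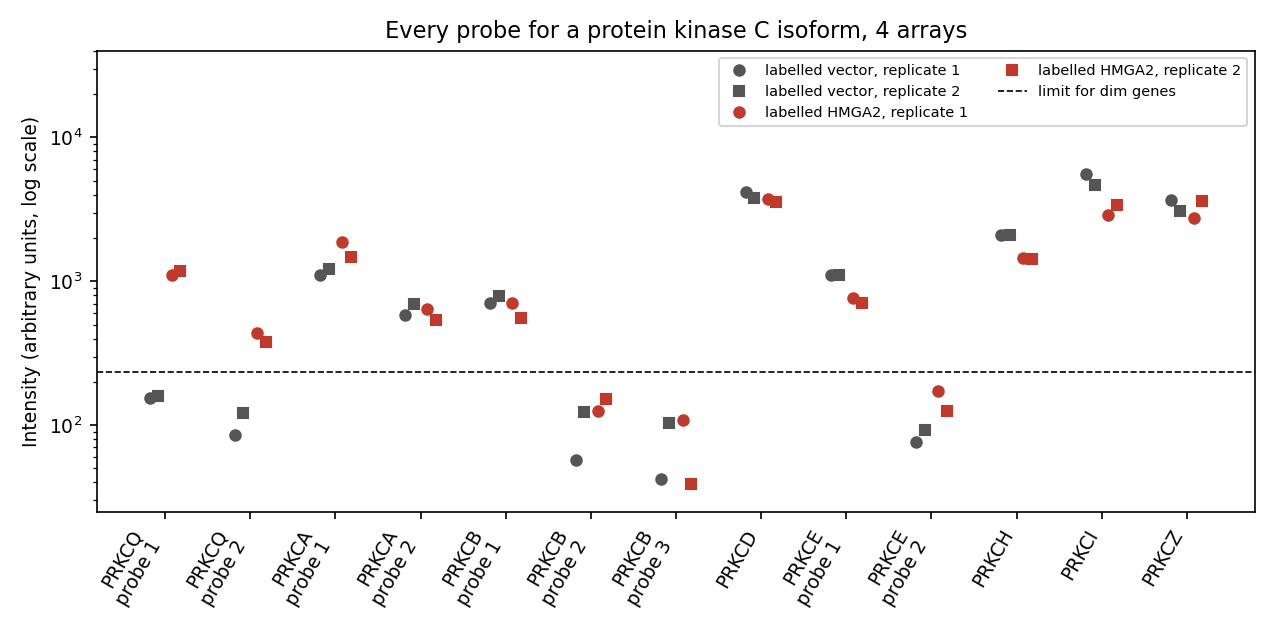
Intensity of each of the 13 probes on each of the 4 arrays, on a log axis, with grey for the arrays labelled vector and red for those labelled HMGA2, and circles and squares for replicates 1 and 2. Both PRKCQ probes cross the dashed limit for dim genes (234) between the groups, while PRKCB probes 2 and 3 and PRKCE probe 2 stay below it on every array.

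The conventional isoforms gave small differences. PRKCA, the broadly expressed PKC alpha, read 1105 and 1226 in the group labelled vector against 1872 and 1479 in that labelled HMGA2 with its brighter probe, a log2 difference of 0.52 (SE 0.15). Its other probe read 584 and 698 against 639 and 539, and there the groups overlapped. The log2 difference of that probe was -0.12 (SE 0.20 in the fit of every probe). The PRKCA probes thus do not show the same pattern, and their mean gave 0.20. PRKCB, PKC beta, known from B cells and other blood cells, read 708 and 792 against 705 and 557. Its groups touched almost without a gap (log2 difference -0.26, SE 0.17), and after quantile normalization the difference was -0.03. The other PRKCB probes were below the limit for dim genes on all 4 arrays and carry no usable size.

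Among the isoforms that need DAG but not calcium, PRKCQ was the 1 whose brightest probe read higher. PRKCH, PKC eta, an isoform of epithelial cells, read 2084 and 2100 in the group labelled vector against 1447 and 1422 in that labelled HMGA2. Replicates differed by far less than the groups, and the log2 difference was -0.54 (SE 0.09). PRKCE, PKC epsilon, read 1099 and 1103 against 762 and 707 with its brighter probe, a log2 difference of -0.58 (SE 0.12). Its dimmer probe read 77 and 93 against 174 and 126, the opposite order, but lay under the limit for dim genes throughout. PRKCD, PKC delta, which has often been tied to apoptosis, read 4143 and 3782 against 3721 and 3562. Its groups were separated by less than the replicates of either group differed (log2 difference -0.12, SE 0.09), and quantile normalization turned the sign to 0.10.

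The atypical pair did not move alike in size. PRKCI, PKC iota, the atypical isoform that partners PAR6 at the apical side of epithelial cells, read 5585 and 4662 in the group labelled vector against 2903 and 3416 in that labelled HMGA2. The groups did not overlap, and the log2 difference of -0.70 (SE 0.13) was the largest below 0 in the family. PRKCZ, PKC zeta, read 3679 and 3080 against 2748 and 3593, so its groups overlapped (log2 difference -0.10, SE 0.16), and quantile normalization gave 0.13.

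**Figure D2:**
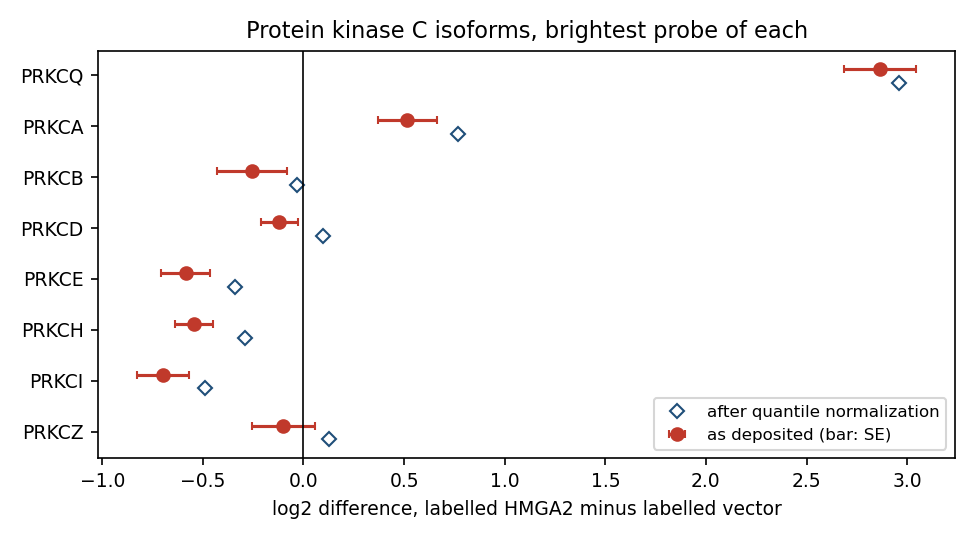
The log2 difference of each of the 8 isoforms, arrays labelled HMGA2 minus arrays labelled vector, from the brightest probe of each gene as deposited (filled, with the SE) and after quantile normalization (open). PRKCQ stands at 2.86, PRKCA at 0.52, and PRKCE, PRKCH and PRKCI at -0.58, -0.54 and -0.70, while PRKCB, PRKCD and PRKCZ lie near 0.

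Counted over the family, 2 isoforms were called higher (PRKCQ and PRKCA) and 3 lower (PRKCE, PRKCH and PRKCI) at an adjusted p of 0.05 in limma, a linear model that borrows its error from all genes. Of the 13752 genes tested 43.6% were called, 14.9% higher and 28.7% lower. The groups did not overlap for 7 of the 8 isoforms, as for 71.3% of all genes. PRKCA was not called without HMGA2 replicate 1 (log2 difference 0.35) or with the mean of its probes, and PRKCE not without HMGA2 replicate 2 or with the mean of its probes, which turned it to 0.11. The family was chosen on this comparison, so these counts only describe it. All 8 genes had passed the filter on dim genes, PRKCQ on the strength of the arrays labelled HMGA2. The whole distribution lay slightly below 0, with a median over all genes of -0.09 as deposited and 0.09 after quantile normalization; quantile normalization moved every isoform upward with it. After quantile normalization PRKCE, PRKCH and PRKCI still read lower (-0.34, -0.29 and -0.49) and PRKCA and PRKCQ higher (0.77 and 2.96), and the same 5 isoforms were called, beside 28% of all genes called higher and 22.6% lower.

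The measured gene next to PRKCQ also read higher. PRKCQ-AS1, a long non-coding RNA gene annotated as antisense to PRKCQ on chromosome 10, overlaps the first 222 bases of PRKCQ in the RefSeq annotation of GRCh38.p14, and so its span takes in the start of PRKCQ printed above. It read 4613 and 5026 in the group labelled vector against 9952 and 9785 in that labelled HMGA2, well apart, a rise of 1.03 log2 (SE 0.09, limma adjusted p = 0.000401). It was thus bright in both groups, unlike PRKCQ. No source used here says where its probe lies or whether it could also detect PRKCQ transcripts.

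Further along the chromosome differences were small. Of the 5 measured genes before PRKCQ and the 5 after it, FBH1, a DNA helicase, rose by 0.42 log2 (SE 0.09, limma adjusted p = 0.00964), from 6794 and 7316 to 9160 and 9746, and the other 8 besides PRKCQ-AS1 did not pass the test. Without vector replicate 1 FBH1 stood at 0.37 (limma adjusted p = 0.0522). The cytokine receptor genes IL15RA and IL2RA, whose groups overlapped, gave -0.08 and -0.04, the splicing factor gene RBM17 0.27 and the glycolysis regulator PFKFB3 0.11. On the far side SFMBT2, a Polycomb-related gene, gave -0.19, ITIH5 0.53 (SE 0.27), ITIH2 -0.16 and KIN -0.08. ITIH5 and PFKFB3 passed after quantile normalization (limma adjusted p = 0.0157 and 0.0353), RBM17 passed with array medians subtracted, with no filter on dim genes, and without vector replicate 2 or HMGA2 replicate 2 (limma adjusted p = 0.0175, 0.0442, 0.0249 and 0.0224), and ITIH2 without vector replicate 1 (-0.59, limma adjusted p = 0.0476).

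**Figure D3:**
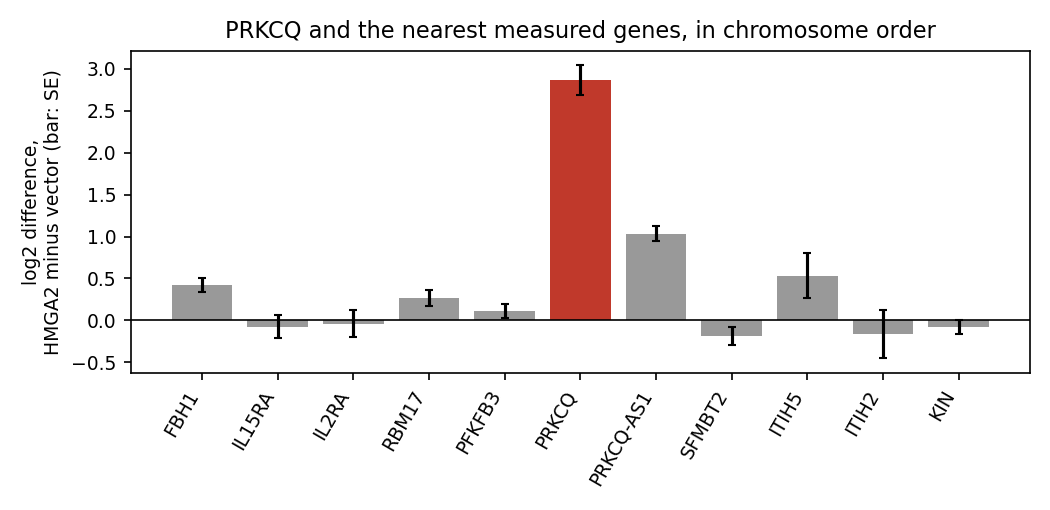
Bars give the log2 difference (arrays labelled HMGA2 minus arrays labelled vector, error bars SE) of PRKCQ, in red, and of the nearest 5 measured genes on each side in chromosome order. PRKCQ (2.86) and PRKCQ-AS1 (1.03) stand above the rest, which lie between -0.19 and 0.53.

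The genes whose pattern over the 4 arrays came closest to that of PRKCQ were BDNF, PDE2A, MYLK, PCOLCE2 and LCN2, with distances of 0.27, 0.37, 0.37, 0.38 and 0.48 log2 between profiles centred on their own mean. All read higher on both arrays labelled HMGA2 than on either labelled vector, at different levels: LCN2 read 1516 and 1611 against 9306 and 7843. MYLK, for example, read 337 and 391 against 3328 and 3403, and PDE2A 89 and 121 against 715 and 636. PCOLCE2 read 83 and 122 against 697 and 674. Like PRKCQ, PDE2A and PCOLCE2 were below the limit for dim genes on both arrays labelled vector, so the size of their differences is uncertain too. Since only 4 arrays in 2 groups enter, the measure mostly finds genes with a log2 difference near 2.86.

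Around the isoforms, 102 other genes were grouped into 7 lists by their place in PKC signalling. Of these 95 are on the array and 81 were tested, and 13 rose and 30 fell on the arrays labelled HMGA2 (limma, adjusted p under 0.05), which is 53.1% called beside 43.6% of all genes. The median log2 difference over the 81 was -0.14, beside -0.09 over all genes. After quantile normalization 18 rose and 23 fell of 82, and the medians were 0.07 and 0.09.

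DAG, the lipid that activates most isoforms, is made by phospholipases C and removed by DAG kinases. Of 10 phospholipase C genes tested 2 rose and 3 fell, with a median of -0.18 as deposited and -0.035 after quantile normalization. The G-protein-coupled members PLCB3 (from 1286 and 1698 to 619 and 725; log2 -1.14, SE 0.17, limma adjusted p = 0.0033) and PLCB1 (-0.82) fell, and PLCB4 fell by 0.65, a call that was lost after quantile normalization and without HMGA2 replicate 1 (-0.49, limma adjusted p = 0.0754). PLCG2, the tyrosine-kinase-coupled enzyme best known from B cells, rose by 0.61 (SE 0.10), from 1087 and 1082 to 1640 and 1677. Among 7 DAG kinase genes tested 1 rose and 4 fell, with a median of -0.51; after quantile normalization 2 rose and 3 fell, with a median of -0.27. DGKA, which dampens DAG signals in T cells, fell by 0.98 log2 (SE 0.09, limma adjusted p = 0.000626), from 4479 and 4378 to 2356 and 2140. DGKD (-0.79) and DGKG (-0.73) fell too, while DGKH rose by 0.56. The DGKG call was lost without HMGA2 replicate 2 (-0.52) and with the mean of its probes (limma adjusted p = 0.0649). Its second probe gave -0.45 and did not pass in the fit of every probe (limma adjusted p = 0.285).

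Of 8 tested genes for related kinases and for other proteins with the DAG-binding C1 domain 2 rose and 4 fell. PRKD3, a protein kinase D that PKC phosphorylates, fell by 1.22 log2 (SE 0.10, limma adjusted p = 0.000392), from 2491 and 2647 to 1071 and 1129. The PKC-related kinases PKN2 (15087 and 15100 to 6993 and 6910; log2 -1.12, SE 0.07) and PKN3 (-0.65) fell as well. RASGRP3, a DAG-regulated activator of RAS proteins, rose by 0.91 (SE 0.23), from 265 and 323 to 633 and 476, close to the limit for dim genes. Its call was lost without HMGA2 replicate 1 (0.70, limma adjusted p = 0.121), and that of PKN3 without HMGA2 replicate 2 (-0.56, limma adjusted p = 0.0744). RASGRP1, RASGRP2, RASGRP4 and PRKD1 were too dim to be tested.

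Newly made PKC is primed by the kinase PDK1 (gene PDPK1) and by mTOR complex 2, and later dephosphorylated and degraded. Of 13 tested genes of these steps 3 rose and 3 fell, with a median of 0.00. After quantile normalization 4 rose and 2 fell, with a median of 0.19. RICTOR, the defining subunit of mTOR complex 2, fell by 1.79 log2 (SE 0.15, limma adjusted p = 0.000454) with its brighter probe, from 1258 and 1513 to 416 and 382. The second RICTOR probe read 622 and 632 against 592 and 468 and did not pass in the fit of every probe (log2 -0.25, limma adjusted p = 0.437). PDPK1 fell by 0.44, a call lost with array medians subtracted (limma adjusted p = 0.261), while PPP2R1A, the scaffold of protein phosphatase 2A, rose by 0.61 and MTOR by 0.36. MTOR did not pass without vector replicate 2 (0.32, limma adjusted p = 0.0869) or HMGA2 replicate 2 (0.29, limma adjusted p = 0.053). PHLPP1 and PHLPP2, the phosphatases that act on primed PKC, gave -0.41 and -0.02 and did not pass.

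Scaffolds place PKC in the cell, and the PAR proteins hold the atypical isoforms at the apical membrane. Among 15 tested genes 1 rose and 6 fell, 2 and 5 after quantile normalization. PICK1 was the 1 that rose as deposited, from 5087 and 5703 to 8861 and 9973 (log2 0.80, SE 0.10, limma adjusted p = 0.00172). NBR1 (11612 and 10017 to 2645 and 3983; log2 -1.73, SE 0.20) and SQSTM1 (16699 and 16252 to 8307 and 8088; log2 -1.01, SE 0.08), autophagy receptors of which the second also binds atypical PKC, both fell (limma adjusted p = 0.00112 and 0.000313). PARD6B, a direct partner of PKC iota, fell by 1.56 (SE 0.14) with its brighter probe, from 1622 and 1821 to 636 and 537, while its dimmer probe gave 0.62 and did not pass. PARD6A, PARD6G and PARD3 gave -0.11, -0.08 and -0.15 and did not pass either. AKAP12, an anchor for PKC and protein kinase A, fell by 1.08 (SE 0.14), from 1020 and 1111 to 533 and 479 with its brighter probe. The groups of its second probe overlapped (log2 -0.35, limma adjusted p = 0.635 in the fit of every probe), and with the mean of its probes the call was lost (limma adjusted p = 0.0637).

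The substrate list held the largest fall of the 7 lists. Of 11 tested genes 2 rose and 4 fell, with a median of 0.01. After quantile normalization 4 rose and 3 fell, with a median of 0.12. MARCKS, the membrane protein that PKC phosphorylation releases into the cytosol, fell by 1.88 log2 (SE 0.11, limma adjusted p = 0.000165), from 24687 and 20997 to 5817 and 6596. Its second probe fell by 2.22, from 6205 and 5847 to 1379 and 1216. The related MARCKSL1 fell by 1.42 (SE 0.08), from 44026 and 40358 to 15912 and 15548, and ADD3, an adductin of the membrane skeleton, by 1.05 (SE 0.09) with its brighter probe, its other probe giving -1.99. PPP1R14D, an inhibitor of protein phosphatase 1 that PKC activates, rose by 0.62 (SE 0.17), but did not pass without vector replicate 1 (limma adjusted p = 0.0982), HMGA2 replicate 1 (0.161) or HMGA2 replicate 2 (0.0737). The other adductin, ADD1, gave -0.01 and the membrane linker EZR 0.01.

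**Figure D4:**
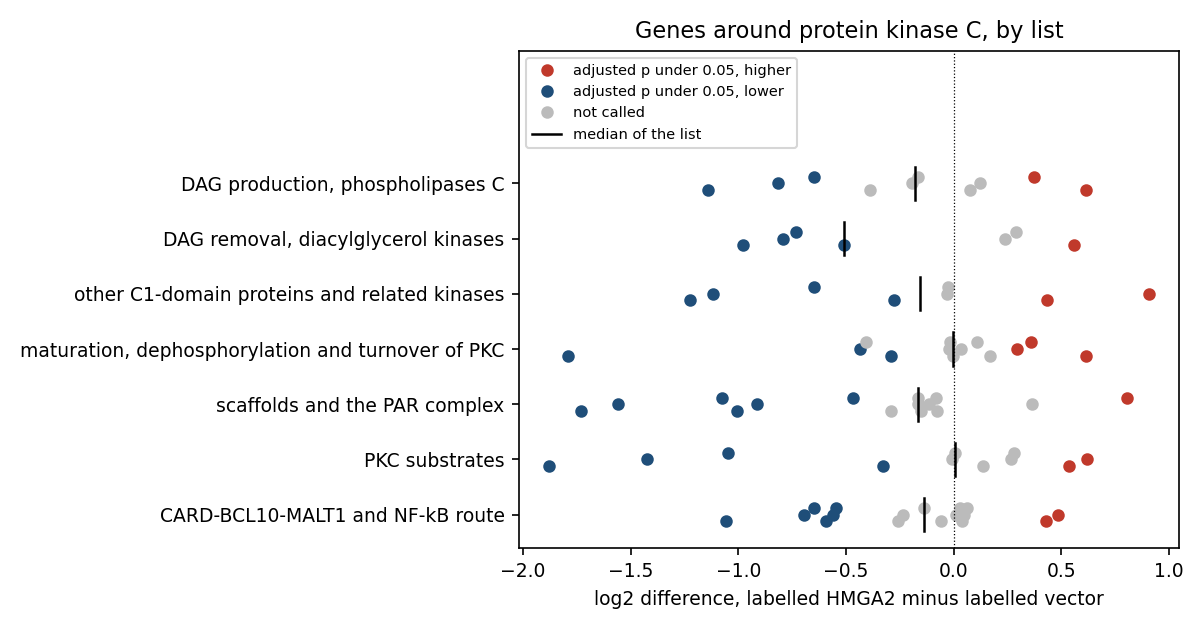
Each point is a tested gene of one of the 7 lists, placed by its log2 difference (arrays labelled HMGA2 minus arrays labelled vector); red and blue points passed an adjusted p of 0.05 in limma as higher and lower, grey points did not, and the black bars are list medians. The lowest points are MARCKS (-1.88), RICTOR (-1.79) and NBR1 (-1.73), and the medians lie between -0.51 and 0.01.

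In the route by which PKC theta reaches NF-kB, 2 of 17 tested genes rose and 6 fell. Those that rose were IKBKB, by 0.49 log2 (SE 0.10, limma adjusted p = 0.0119), and TRAF2, by 0.43 (SE 0.10, limma adjusted p = 0.0144). Both were also called higher after quantile normalization. VAV2, a guanine nucleotide exchange factor, fell by 1.06 log2 (SE 0.12, limma adjusted p = 0.00121), from 1727 and 1506 to 783 and 766, though its second, dimmer probe gave -0.27 and did not pass. IKBKG, the regulatory subunit of the IkB kinase, fell by 0.70 (SE 0.10) and MAP3K7, the kinase TAK1, by 0.59, each with its brighter probe only. The second IKBKG probe was under the limit for dim genes on all 4 arrays. The second MAP3K7 probe was above it on all 4 and read the opposite order, 1291 and 1359 against 1419 and 1510. It gave 0.14 and did not pass in the fit of every probe (limma adjusted p = 0.538). CARD10, a scaffold of this route in epithelial cells, fell by 0.65 as deposited (limma adjusted p = 0.0198) and lost its call after quantile normalization (limma adjusted p = 0.0834) and without HMGA2 replicate 1 (-0.48, limma adjusted p = 0.073). BCL10 and MALT1, its partners, gave 0.01 and 0.03 and did not pass, with BCL10 at 4735 and 5002 against 4718 and 5115.

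The marker genes moved in both directions too. Of the 7 epithelial markers 3 rose and 3 fell: KRT8 fell by 2.43 log2, LGALS4 by 0.76 and CDX2 by 0.62, while VIL1 rose by 1.23 and EPCAM and CDH1 by 0.26 each. Among 5 tested T cell markers CD28 was the 1 that passed, lower by 0.79 at 369 and 382 against 224 and 211, near the limit for dim genes. That call was lost without any 1 of the 4 arrays (limma adjusted p from 0.0791 to 0.191). CD3D read 9451 and 10862 against 12672 and 11920 and did not pass as deposited (limma adjusted p = 0.0616). The part of these marker differences in the PKC values was not tested.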

How the data were processed

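Antisense RNA amplified from total RNA was labelled with Cy5 and hybridised to 1-colour arrays, per the labels' protocols. The deposited values are linear intensities, 1 for each probe on each array. No source used here states the scanner, the background correction or the normalization. Between 0 and 639 probes per array lie at or below 0. The number of arrays limits the precision.

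Of the 31741 probes 24740 carry 1 gene symbol in the platform annotation, 977 several and 6024 none. RefSeq (GRCh38.p14) supplied newer symbols for 1948 probes and held the symbol of 99.7% of the single-gene probes. Intensities under 1 were raised to 1 before log2. A gene's value is that of its brightest probe. Leaving out the 4584 of 18336 genes under the 25th percentile of mean level kept 13752 for limma 3.58.1 in R 4.3.3 (eBayes with an intensity trend, Benjamini-Hochberg adjustment, threshold 0.05). The SE of a gene's brightest probe is that of the gene fit, and values of other single probes come from a model of all probes. With 2 arrays against 2, the smallest two-sided exact permutation p is 0.333. The procedure was tested on simulated data. Promoter windows are RefSeq's, and all 8 isoforms matched by symbol.

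The members, lists and tests were chosen with earlier results of these data known. Genes named are the 8 isoforms, per list the up to 4 largest differences that passed with no overlap between groups, the 5 measured genes on each side of PRKCQ and the 5 nearest profiles; others (such as PHLPP1, ADD1, BCL10 or CD3D) were named after their values were seen. Same-numbered arrays deviated from their group means in opposite ways (correlation -0.173 over 21799 probes), so the numbers were not taken to pair the arrays. Alternatives were other scalings, filters, probe summaries, variance models, offsets, blocks and each array left out.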

Additional observations from a re-analysis of the deposited data

How the results depend on the processing

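Scaling of the arrays and averaging of probes both moved values. In the order quantile normalization, array medians subtracted, and normexp (offset 50) with quantile normalization, all genes gave 3844, 3715 and 3853 calls higher (2051 as deposited), and calls lower fell from 3943 to 2479 with medians subtracted. In the same order the log2 differences were 2.96, 3.09 and 2.68 for PRKCQ, 0.77, 0.74 and 0.75 for PRKCA, -0.032, -0.036 and -0.030 for PRKCB, 0.10, 0.10 and 0.10 for PRKCD, -0.34, -0.36 and -0.33 for PRKCE, -0.29, -0.32 and -0.29 for PRKCH, -0.49, -0.48 and -0.48 for PRKCI, and 0.13, 0.12 and 0.12 for PRKCZ. PRKCD and PRKCZ thus changed sign. So did the uncalled neighbours IL15RA (0.16, 0.15 and 0.16), IL2RA (0.21, 0.18 and 0.21), SFMBT2 (0.037, 0.034 and 0.037), ITIH2 (0.021, 0.058 and 0.018) and KIN (0.13, 0.15 and 0.13). Averaging a gene's probes gave 2.43 for PRKCQ, 0.20 for PRKCA, 0.11 for PRKCE, 0.41 for IKBKG and 0.10 for IL2RA, the last 3 with the sign turned; the dim second probes of PRKCE and IKBKG, under the limit on all 4 arrays, pull these means. log2(value + 16) gave 2.74 for PRKCQ.

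Leaving out each array in turn gave log2 differences of -0.29 to 0.094 for PRKCZ, which was above 0 without vector replicate 1 (0.029) and without HMGA2 replicate 1 (0.094), and of 2.82 to 2.91 for PRKCQ. The uncalled neighbours ran from -0.17 to 0.020 (IL15RA), -0.21 to 0.13 (IL2RA) and -0.59 to 0.26 (ITIH2). Calls among the listed genes ran from 9 to 12 higher and from 26 to 30 lower. PRKCQ, picked for its rise in this comparison, read above 0 in all 13 settings that measured it, which only describes it. Dropping the filter on dim genes or the intensity trend, or adding the replicate number as a block, left it at 2.86. Those settings cannot change a log2 difference between group means. The filter at the 50th percentile left PRKCQ out. PRKCA lost its call without HMGA2 replicate 1, without the intensity trend and with the mean of probes, and PRKCE lost its call without HMGA2 replicate 2 and with the mean of probes. PRKCH lost its call with array medians subtracted. With the replicate number as a block 5329 genes were called, 11 listed genes rose and 26 fell, and of the genes named for their list DGKG, RASGRP3, PKN3, PPP1R14D and CD28 lost their calls. A crossed pairing of the numbers, chosen after seeing the data, gave 7209 calls. PLCB4, CARD10, PDPK1, PARD6B, AKAP12, MAP3K7, MTOR, CDX2 and FBH1 each lost a call under at least 1 setting. Listed genes not described above lost calls too, among them DGKE, CHN1, HSP90AA1, LLGL1 and RDX after quantile normalization. Readings under an intensity of about 234 limit what can be said of low levels.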
